A study of Mus musculus with 12 samples.

Results

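The 89 elements described here are 100-bp mouse sequences in which the sites for homeodomain transcription factors named by the library's designers were mutated together, in the set of the library built around dimeric sites. They were the elements whose designed name carries the dimer-set ending for all sites, and they were 89 of 14987 elements in all and of 13717 modified elements. Each was paired with the unmodified element of its own genomic region, so no 2 members shared a control. The massively parallel reporter assay CRE-seq placed each element upstream of a photoreceptor promoter that drives a DsRed reporter with 13-bp barcodes, and barcode reads in cDNA over barcode reads in DNA gave the element's activity. Retinas from newborn (P0) CD1 pups, genotype WT, received 30 µg of library plasmid and 30 µg of CAG-GFP plasmid by electroporation and were cultured for 8 days as explants. The groups measured were pRho (the rod opsin promoter) and pCrx (the promoter of the homeodomain gene Crx), with 3 replicates each. A replicate was a pool of 5 retinas that gave 1 DNA and 1 cDNA library, so the spread between replicates is a spread between pools. No endogenous gene was read in this assay, so tissue markers were not measured. An explant holds several cell types, and a lower ratio from fewer expressing cells cannot be told apart from less reporter RNA per cell.

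Homeodomain proteins bind short DNA sites with a TAAT-like core, and the residue at position 50 of the domain sets which bases they prefer beside that core. Proteins with lysine there, such as CRX and OTX2, prefer sites ending in CC (K50 sites), whereas many others carry glutamine (Q50 sites). CRX is a main activator of rod and cone genes, and pairs of sites facing each other can be bound by a dimer. Both promoters used here are themselves active in photoreceptors, and an element can raise or lower that activity.

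The sequences below show what was changed. They are taken from the deposited library design, 5′ to 3′ on the strand written there, with mm9 coordinates. Each line gives 1 stretch of a member before and after the change, and capitals mark the changed bases. The first 4 members were chosen to show because they held the same 11-base dimer, TAAGAGGATTA in one orientation or the other, and moved in opposite directions on pRho. The next 2 shared the dimer TAAGTGGATTA and differed on pRho. The last ones are the strongest riser on pCrx and the member with most changes. Among these members, chr19:38805436-38805535 and chr14:48846549-48846648 left another designed dimer of their region fully or partly in place. T46G at chr8:61013519-61013618 and T33G at chr14:48846549-48846648 lie outside the stretches shown.
chr4:135789398-135789414 unmodified: ggctaAgaggaTtagcc
chr4:135789398-135789414 all sites changed: ggctaCgaggaGtagcc
chr8:61013597-61013613 unmodified: agataAgaggaTtagcc
chr8:61013597-61013613 all sites changed: agataCgaggaGtagcc
chr19:38805490-38805506 unmodified: ttctaAtcctcTtaggc
chr19:38805490-38805506 all sites changed: ttctaCtcctcGtaggc
chr2:112311138-112311154 unmodified: cagtaAtcctcTtatcc
chr2:112311138-112311154 all sites changed: cagtaCtcctcGtatcc
chr12:117389201-117389217 unmodified: agttaAgtggaTtagac
chr12:117389201-117389217 all sites changed: agttaCgtggaGtagac
chr10:80869594-80869610 unmodified: tactaAgtggaTtaggg
chr10:80869594-80869610 all sites changed: tactaCgtggaGtaggg
chr14:48846604-48846620 unmodified: tgataAtcagcTtagct
chr14:48846604-48846620 all sites changed: tgataCtcagcGtagct
chr10:68737202-68737221 unmodified: cgctaAtccccTttAtccct
chr10:68737202-68737221 all sites changed: cgctaCtccccGttCtccct
chr10:68737233-68737254 unmodified: ctctaAtcgctccagaTtagca
chr10:68737233-68737254 all sites changed: ctctaCtcgctccagaGtagca

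In all 89 members both arms of 1 dimer were changed, as an A-to-C change in the site read forward and a T-to-G change in the site read in reverse, 6 bases apart with 3 bases between the cores. A total of 43 members carried only these 2 changed positions. Another 37 carried 3, 8 carried 4 and 1 carried 5. The 56 extra changes lay in further K50-type sites, of which TAATCC (28), TAAGCC (10) and TAATCT (10) were the most common. Among the 178 arms of the dimers, TAATCC occurred 51 times, TAAGAG 17 times and AAAGAG 15 times. Both arms had a TAAT core in 7 members, 1 arm in 66 and neither in 16. Across the unmodified elements of the whole library, TAATCC on either strand was found in 63.7% of 1270, and in 74.2% of the members' own unmodified elements.

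The label "all sites" held for K50 sites and only in part for others. TAATCC was left in 0 of 89 members on either strand. TAAT on either strand was left in 34 of 89 members (38.2%), with up to 3 copies, against 91.0% of their unmodified elements and 93.5% of all unmodified elements. In 16 members, another dimer that the library's design mutates elsewhere in the same region was left fully or partly in place, wholly in 8 of them. In 7 members a designed Q50 site change was not included, and 21 members lacked one or the other. An example is the member at chr11:72488951-72489050, which carries T40G, A51C, T57G and T74G but not the region's other dimer change, A17C with T23G. In such tokens the element's own first base is position 1. The members at chr14:35424931-35425030, chr14:48846549-48846648 and chr19:38805436-38805535 were also among the 16.

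Loss of the sites lowered activity in most members on both promoters, and raised it in a minority. On pRho 64 of 89 members fell and 15 rose in edgeR's quasi-likelihood test of modified against unmodified, at a Benjamini-Hochberg adjusted p below 0.05 over all 13717 modified elements. Of those modified elements, 43.7% fell and 16.3% rose on pRho. On pCrx 60 members fell and 11 rose, where 43.4% of all modified elements fell and 10.6% rose. The effect, the log2 ratio of the modified over the unmodified element's activity, averaged -0.77 ± 0.02 (SD over 3 replicates) on pRho, which leaves 58.5% of activity. It averaged -0.80 ± 0.06 (SD, n = 3 replicates) on pCrx, which leaves 57.6%. Medians over members were -0.92 and -0.85, against -0.18 and -0.26 over all modified elements. A fall of similar size was seen outside the dimer set. There, 361 elements with every K50 site inactivated averaged -0.69 on pRho and -0.68 on pCrx (SD over elements 0.97 and 0.99). A total of 41 members on pRho and 40 on pCrx fell by more than 1 on the log2 scale.

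Members spread widely around these means. On pRho the effects ran from -3.01 to 1.90, and the range on pCrx was -3.30 to 2.81, with an SD over members of 1.07 and 1.11. The median standard error of a single member's effect was 0.12 on pRho and 0.15 on pCrx, and 83 and 81 members had the same sign in all 3 replicates. With barcodes as the units of replication, which adds the spread between the 6 or 7 barcodes of an element, limma called 49 falls and 11 rises on pRho, where it called 23.2% and 5.54% of all modified elements. On pCrx it called 48 falls and 8 rises, against 27.6% and 4.66%. DESeq2 on the summed counts called 64 falls and 15 rises on pRho (44.2% and 16.6% of all modified elements) and 61 and 11 on pCrx (44.7% and 11.1%).

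Most members had the same call on both promoters. A total of 50 members fell on both, 7 rose on both, and 4 passed on neither. Another 6 rose on pRho and fell on pCrx, and 2 did the reverse. The shares of such joint calls over all modified elements are not given here, so these counts only describe the members. Over the 89 members, effects on the 2 promoters correlated with r = 0.56 (Spearman's rho 0.53), a description of oligos that were in separate plasmid libraries.

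The deepest fall on pRho was at chr4:135789349-135789448, changed at A55C and T61G. Its unmodified element had activities of 1.45, 1.35 and 1.70 (log2 of cDNA over DNA reads, where 0 is the typical element) in replicates 1 to 3, and the modified element -1.45, -1.52 and -1.58. The groups did not overlap, and 12.4% of activity was left (log2 effect -3.01 ± 0.13 SE, edgeR Benjamini-Hochberg adjusted p = 9.1e-27). On pCrx the same change took activity from 0.71, 0.95 and 0.91 to -0.61, -0.32 and -0.67, an effect of -1.38 ± 0.17. The next of the named members on pRho were chr10:19053567-19053666 (A16C, T22G and A58C) at -2.76 ± 0.13, chr6:39758713-39758812 (A49C and T55G) at -2.53 ± 0.10, chr13:44327013-44327112 (A35C, A74C and T80G) at -2.35 ± 0.11 and chr1:178911829-178911928 (A16C, T22G and T63G) at -2.16 ± 0.11. All 5 of these members were less affected on pCrx, where their effects lay between -0.65 and -1.38. They were chosen for low effects on pRho, which favours a smaller effect on the other promoter.

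On pCrx the deepest fall was at chr8:61013519-61013618, changed at T46G, A84C and T90G. The unmodified element was among the most active on this promoter, at 2.71, 2.97 and 2.42, and the modified element stood at -0.56, -0.51 and -0.69. That left 10.1% of activity (log2 effect -3.30 ± 0.15 SE, edgeR Benjamini-Hochberg adjusted p = 5.5e-15). On pRho its 3 unmodified values, from 1.26 to 1.45, again lay above the 3 modified values, from -0.37 to -0.04, with an effect of -1.60 ± 0.12. The other 4 deepest of the named members on pCrx were chr14:35424931-35425030 (A48C, A84C and T90G) at -2.78 ± 0.13, chr11:120313700-120313799 (A17C, A57C, T63G and A86C) at -2.61 ± 0.14, chr3:104769978-104770077 (T43G, A59C and T65G) at -2.50 ± 0.15 and chr10:80869522-80869621 (A78C and T84G) at -2.40 ± 0.16. All 5 fell less on pRho, with effects between -2.01 and -1.18. Here too the choice, made on pCrx, favours a smaller effect on the other promoter.

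Members that rose came from weak unmodified elements. Of the 15 risers on pRho, 14 had an unmodified element called below the typical element on pRho, where edgeR called 45.7% of all elements below and 43.2% above. All 11 risers on pCrx had an unmodified element below the typical one on pCrx, against 38.5% of all elements below and 37.4% above. The effect contains the unmodified element's value, so a low value favours a rise. On the other promoter, whose libraries are separate, the unmodified elements of the 11 pCrx risers were also all below the typical element, as were those of 8 of the 15 pRho risers.

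The strongest riser on both promoters together was chr4:53646714-53646813, changed at A34C and T40G. On pRho its activity went from -3.03, -2.88 and -3.04 to -0.93, -1.31 and -0.99, and on pCrx from -3.07, -2.81 and -2.37 to -0.60, -0.29 and -0.45. The replicates of the 2 alleles did not overlap on either promoter, and the rises were 3.73-fold and 4.84-fold (log2 effects 1.90 ± 0.13 and 2.27 ± 0.16 SE). Even so, the modified element stayed below the typical element in each of the 6 pairs of libraries. The 2 largest rises on pCrx were at chr14:48846549-48846648 (T33G, A61C and T67G), from -3.23, -2.98 and -2.56 to -0.12, -0.44 and 0.33, and chr1:134310730-134310829 (A40C, T46G and T55G), from -3.12, -3.58 and -2.93 to -0.51, -0.60 and -0.82. These were rises of 7.01-fold and 5.82-fold. The same changes gave 2.07-fold and 1.93-fold on pRho, and the second of these missed the threshold when barcodes were the units (limma adjusted p = 0.076). On pRho the remaining 2 of the 3 largest rises were at chr19:38805436-38805535 (A60C and T66G), 2.79-fold, and chr2:112311120-112311219 (A24C and T30G), 2.74-fold.

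The single-arm changes of risers are given beside the other single changes of the same regions, because all of them share the unmodified element and a low one raises them together. Among the 11 pCrx risers, each arm's own single-base change was tested, and both arms rose in 5, 1 arm in 4 and neither in 2. Among the 14 pRho risers with both single changes in the library, both arms rose in 5, 1 arm in 7 and neither in 2. Away from the members' changed positions, 43.0% of 363 single changes in the pCrx risers' regions also rose, and 44.9% of 459 in those of the 14 pRho risers. The corresponding shares over all 83 regions with both arms were 11.1% and 14.2%. At chr4:53646714-53646813 the change of 1 arm alone gave 2.42 and of the other 2.32 on pCrx, beside 2.27 for both together.

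After the change, members were closer to each other than their unmodified elements were. On pRho the SD of activity over the 89 elements was 1.15 (1.12 to 1.17 in the 3 replicates) before and 0.76 (0.74 to 0.77) after. On pCrx it was 1.16 (1.11 to 1.21) before and 0.51 (0.48 to 0.55) after, so the replicates of the 2 states did not overlap on either promoter. Changing 1 arm alone narrowed the spread in part: over the 83 regions with both single-arm changes, the SD was 0.96 and 0.94 for the 2 arms and 0.70 for the full change on pRho, and 0.68, 0.69 and 0.46 on pCrx. A narrowing was also seen outside the dimer set, where 361 elements with every K50 site inactivated had an SD of 1.20 before and 0.81 after on pRho, with 1.10 and 0.49 on pCrx.

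The narrower distribution sat below the typical element. On pRho 71 members were below and 11 above it, whereas 33 of their unmodified elements were below and 47 above. Of all elements, 45.7% were called below and 43.2% above on pRho. On pCrx 58 members were below and 8 above, against 20 and 57 before the change, and 38.5% and 37.4% of all elements. With total-count scaling in place of TMM (edgeR's trimmed mean of M-values), 77 members were below on each promoter and 7 and 2 above. The shares over all elements under that scaling are not given here. Mean activity over members fell on pRho, where it was 0.09 before and -0.68 after, and on pCrx, where it was 0.42 and -0.38. The order of the elements was only partly kept: activity before and after the change correlated with r = 0.42 on pRho and 0.29 on pCrx (n = 89 elements, a description). Between promoters, r was 0.70 for the unmodified elements and 0.59 for the changed ones.

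Where the unmodified element was above the typical element on pRho, 44 of 47 members fell and 1 rose on pRho, with a mean effect of -1.39. Where it was below, 12 of 33 fell and 14 rose, with a mean of 0.08. The corresponding numbers on pCrx were 53 of 57 falling with a mean of -1.38, and 2 of 20 falling with 11 rising and a mean of 0.62. The effect contains the unmodified element's value, so this sorting favours such an order in any modified elements. The shares over all modified elements sorted in this way are not given here, so these counts only describe the members. Sorting by the other promoter's value, which does not enter the effect, gave the same order, although the unmodified elements' values correlated between promoters (r = 0.70). Members whose unmodified element was above the typical one on pCrx averaged -1.04 on pRho, and those below averaged 0.03. Members sorted on pRho averaged -1.28 and -0.13 on pCrx.

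More changed positions went with a lower mean, with wide overlap. On pRho the mean effect was -0.66 for 2 changed positions (43 members), -0.79 for 3 (37 members), -1.12 for 4 (8 members) and -2.12 for the single member with 5. On pCrx the means were -0.66, -0.80, -1.42 and -1.87. In the same order, the unmodified elements averaged 0.16, -0.04, 0.16 and 1.33 on pRho, and the changed ones -0.50, -0.83, -0.96 and -0.78. On pCrx the unmodified elements averaged 0.41, 0.30, 0.90 and 1.29, and the changed ones -0.25, -0.49, -0.52 and -0.58. The effect contains the unmodified element's value, and the part of that value in these means was not tested. Effects of the members with 2 changes ran from -3.01 to 1.90 on pRho, which covers all members with more changes. On pCrx they ran from -2.53 to 2.27, and members with 3 or more changes reached further both ways, from -3.30 to 2.81. The number of changed positions correlated only weakly with the effect, at r = -0.15 on pRho and -0.19 on pCrx over 89 members (a description). The calls were alike in shape: 30 of 43 members with 2 changes and 34 of 46 with 3 or more fell on pRho, and 28 of 43 and 32 of 46 on pCrx.

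The member with 5 changed positions was chr10:68737188-68737287 (A20C, T26G, A29C, A51C and T62G). On pRho its unmodified element measured 1.25, 1.29 and 1.41 and the changed element -0.87, -0.84 and -0.67, so that 23.0% of activity was left. On pCrx the values were 1.38, 1.51 and 0.97 before and -0.64, -0.64 and -0.51 after, and 27.3% was left. Changing the dimer alone in this region had effects of -1.30 and -1.47, against -2.12 and -1.87 for all 5 positions. The added fall was called on pRho and not on pCrx (edgeR Benjamini-Hochberg adjusted p = 3.5e-07 and 0.19).

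For 46 members, those with 3 or more changed positions, the library also held an element with only the dimer changed. The contrast of the 2 gives the effect of the extra changes where the dimer is already changed. Some extra changes were also 1 arm of another designed dimer, such as T35G at chr11:108159416-108159515. On pRho the full change was lower than the dimer change in 22 of 46 members, higher in 11 and not different by the test in 13. Over the 3569 contrasts of a member with a single-base or dimer-only element of its region, 66.0% were lower and 17.2% higher on pRho. On pCrx it was lower in 8, higher in 6 and not called in 32, against 50.1% and 11.8%. With barcodes as units, limma called 15 lower and 4 higher on pRho (all contrasts 52.5% and 11.4%), and 2 lower and 0 higher on pCrx (37.6% and 6.11%), where 2 were higher at an unadjusted p below 0.05. The mean added effect was -0.24 ± 0.02 (SD over 3 replicates) on pRho and -0.06 ± 0.04 on pCrx. The dimer alone accounted for -0.63 of -0.87 on pRho and -0.87 of -0.93 on pCrx in these 46 members. The difference between promoters in this contrast passed in 18 members, higher on pCrx in 14 and lower in 4, where 31.1% and 22.3% of all such contrasts did.

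Examples went in both directions on pRho. At chr1:134310730-134310829 the full change was higher than the dimer change by 0.97 ± 0.12 SE on pRho, the largest such value (edgeR Benjamini-Hochberg adjusted p = 1.1e-11). On pCrx it was higher by 0.71 ± 0.14. At chr14:35424931-35425030 the dimer alone gave -0.49 on pRho, and the K50 site change added to it brought the effect to -2.01 ± 0.11. This member left another designed dimer of its region fully or partly in place. On pCrx the dimer alone already gave -2.80, beside -2.78 for the full change. At chr8:61013519-61013618 the corresponding values were -0.80 and -1.60 on pRho, and -3.35 and -3.30 on pCrx. At chr14:35424931-35425030 and chr8:61013519-61013618 the extra site's change moved pRho activity. It left pCrx activity there within the error of the contrast (edgeR Benjamini-Hochberg adjusted p = 0.88 and 0.84).

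The 2 arms of a dimer were also mutated one at a time in 83 of the 89 regions. On pRho both single-arm changes fell in 41 regions, and the full change fell in all 41 of them. One arm fell in 18 regions, of which 15 fell with the full change, and neither arm fell in 24, of which 5 did. On pCrx both arms fell in 44 regions (43 with a falling member), 1 arm in 15 (10) and neither in 24 (1). These counts share the unmodified element, and the other single changes of the regions followed the same order. Away from the changed positions, 56.2% of single changes fell on pRho where both arms fell, 40.6% where 1 did and 11.8% where neither did, against 40.0% over all 83 regions. On pCrx the shares were 60.1%, 29.4% and 9.99%, against 40.0%. Arms with a TAAT core averaged -0.59 on pRho and -0.73 on pCrx (76 arms), and the 90 arms with another core averaged -0.37 and -0.54. Within each class the SD over arms was 0.97 and 1.03 for TAAT and 0.62 and 0.78 for the rest, larger than the gap between the classes.

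The single effects added up to more than the full change on average, with a larger shortfall on pCrx. In the 83 members whose every changed base also exists as a single-base element, the single effects added to -0.98 on pRho, and the full change averaged -0.78. The difference was 0.19 ± 0.06 (SD over 3 replicates), and 52 of 83 members lay above their sum. On pCrx the single effects added to -1.49 and the full change averaged -0.75, a difference of 0.74 ± 0.07, with 67 of 83 members above the sum. Members with 2 changed positions differed from their sum by 0.28 on pRho and 0.54 on pCrx, and those with 3 or more by 0.12 and 0.92. These sums share the unmodified element's value, which enters once for each part.

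Every region also held between 37 and 41 elements with a single changed base, and each member was tested against all of those in its region, 3523 contrasts in total. The member was the lower of the pair in 66.3% of them on pRho and the higher in 17.1%. On pCrx it was lower in 50.6% and higher in 11.8%.

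Against the deepest of the single changes the picture was different. The deepest single change averaged -1.20 on pRho and -1.29 on pCrx, so the full change lay above it by 0.43 and 0.49 on average. On pRho 13 members were called lower than the deepest single change, 47 higher and 29 not different by the test, and on pCrx 4, 36 and 49. Since the deepest of about 40 values is chosen for being low, its noise goes into this gap. When the deepest single change was chosen on the other promoter instead, the mean gap was -0.052 on pRho, with 40 members lower, 26 higher and 23 not called. On pCrx it was 0.075, with 12 lower, 17 higher and 60 not called. Chosen on the odd-numbered barcodes and valued on the even-numbered ones, the gap was 0.18 on pRho and 0.25 on pCrx.

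The deepest single change was one of the member's own changed bases in 16 regions on pRho and in 13 on pCrx. It lay at a changed position, to this or another base, in 25 and 26. Against the deepest of only those single changes that the design names as the inactivation of 1 site, the full change averaged -0.20 on pRho and -0.025 on pCrx. This covers only members with such a single change. The deepest is then taken from fewer values per region, which favours a less deep one. In 6 regions the stretch mutated base by base covered another site than the dimer changed in the member.

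The full change was lower than every single change of its region, by edgeR's test, in 13 regions on pRho and 4 on pCrx, and 3 regions were in both lists. At chr14:35424931-35425030 the deepest single change on pRho was T52G at -0.35, against -2.01 for the full change, a gap of -1.66 ± 0.11 SE. This is 1 of the 6 regions whose base-by-base stretch lies on another site, so most of its single changes did not touch the changed dimer. The full change there also left another designed dimer fully or partly in place. At chr8:61013519-61013618 it was T91G at -0.51 against -1.60, and at chr11:120313700-120313799 A57C at -0.78 against -1.85. These are the 3 members that were lower than all 41, 40 and 40 single changes of their regions on both promoters. At chr13:54391651-54391750 (A34C, T40G and T91G) the deepest single change on pCrx was A43T at -0.88, and the full change was at -1.76. That member was lower than all 40 single changes on pCrx but higher than 23 of them on pRho.

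Some regions of risers also held single changes that fell. A riser lies above the lowest of about 40 single changes by its selection, so that contrast is given as a description. The deepest single change was itself a called fall in 14 of the 15 pRho risers' regions and in 6 of the 11 on pCrx. At chr11:72488951-72489050 the deepest single change on pCrx was C56G at -1.18, next to 1.61 for the full change, a gap of 2.78 ± 0.22 SE. Its unmodified element measured -2.54, -2.15 and -2.94 on pCrx and the changed element -0.90, -0.76 and -1.10. Its small rise on pRho, 0.43 ± 0.13, was 0.07 without the barcode of the highest ratio and did not pass there (edgeR Benjamini-Hochberg adjusted p = 0.73). Without replicate 1 it was 0.36 and did not pass either (adjusted p = 0.071). At chr7:135012900-135012999 (T31G, A85C and T91G) the full change gave 0.99 on pRho, 2.00 above the deepest single change, G82T. On pCrx A87T gave -1.16 and the full change 1.03, a rise that did not pass with each barcode as a unit (limma adjusted p = 0.071).

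Members that shared a changed dimer differed in effect between regions. Their full changes were not always alike, since extra changed sites and designed dimers left in place differed between members. With TAAGAGGATTA, for example, chr8:61013519-61013618 also carried T46G, whereas chr4:135789349-135789448 carried only the dimer change. The 89 changed dimers comprised 33 distinct 11-base sequences when both strands were read as 1, and 16 of these occurred in 2 or more members, 72 members in all. In 6 of the 16 on pRho and 5 on pCrx, some members fell and others rose. TAAGAGGATTA was the changed dimer in 13 members, with 8 falls and 4 rises on pRho and effects from -3.01 to 1.48. It was found in 15 of all 1270 unmodified elements, all 15 of which belonged to members. AAAGAGGATTA was the changed dimer in 15 members, with 9 falls and 3 rises on pRho and effects from -2.76 to 1.90. TAAGTGGATTA occurred in 4 members, of which 2 fell and 2 rose on pRho while 3 fell and 0 rose on pCrx. These groups were formed after the effects were known and have no test.

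Effects differed between promoters in 55 of 89 members. In edgeR's 3-way interaction test 26 members had a lower effect on pCrx and 29 a higher one, where 23.7% and 15.1% of all modified elements did. With barcodes as units limma called 19 lower and 7 higher, against 9.87% and 3.54%, so the count of members higher on pCrx went from 29 to 7. The mean difference over members, pCrx minus pRho, was -0.02.

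The 3 largest differences toward pRho were in members that rose there and fell on pCrx. At chr12:117389144-117389243 (A63C and T69G) activity on pRho went from -1.84, -1.92 and -1.72 to -0.45, -0.51 and -0.38. On pCrx it went from 1.28, 1.34 and 0.97 to -0.10, 0.11 and -0.05. The alleles did not overlap on either promoter and moved in opposite directions to a similar level, a difference of -2.59 ± 0.17 SE between log2 effects of 1.38 and -1.21 (edgeR Benjamini-Hochberg adjusted p = 1.1e-16). Each arm alone did the same, with 0.63 and 1.32 on pRho and -1.56 and -1.47 on pCrx. At chr13:54391651-54391750 the effects were 0.83 and -1.76, and at chr17:27570392-27570491 (A30C, T36G and A78C) 1.08 and -1.39. With barcodes as units the rise at chr13:54391651-54391750 did not pass (limma adjusted p = 0.074), and the other 5 of these 6 calls did.

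Those 3 were among 6 members that rose on pRho and fell on pCrx. All 6, and the 2 with the reverse pattern, passed the test of the difference itself. That test uses the same counts, so opposite calls favour passing it. In 5 of the 6 the unmodified element was below 0 on pRho and in 5 it was above 0 on pCrx. Both effects contain the unmodified element's value, so choosing opposite calls also favours such values. Both opposite calls held with barcodes as units in 2 of the 6.

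The 3 largest differences toward pCrx had more than one form. At chr10:19053567-19053666 the pRho values went from 0.72, 0.75 and 0.55 to -2.04, -2.11 and -2.11, while on pCrx 0.00, 0.14 and 0.04 went to -0.59, -0.73 and -0.71. The difference was 2.02 ± 0.20, from a fall that was larger on pRho and whose pCrx part did not pass by barcodes (limma adjusted p = 0.091). The fall at chr6:39758713-39758812 likewise differed, by 1.88 ± 0.18, between -2.53 and -0.65, although that difference missed the threshold by barcodes (limma adjusted p = 0.071). At chr14:48846549-48846648 the difference of 1.76 ± 0.31 came from a rise that was larger on pCrx.

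Base composition moved with the effect to a small degree. The GC content of the unmodified elements had a median of 47.0% (36.0% to 61.0%) against 49.0% over all unmodified elements. Over the 89 members it correlated with the effect at r = -0.36 on pRho and -0.20 on pCrx, as a description, and its part in the effects was not tested.

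The authors' deposited tables held 86 of the 89 members. In the authors' deposited table of comparisons, 55 members were lower and 14 higher at their adjusted p below 0.05 on pRho, against 28.1% and 8.63% of all pairs in it. On pCrx the authors' deposited table had 49 lower and 8 higher, against 27.5% and 4.71%. The sign was the same as in the edgeR fit in 83 of 86 members on pRho and 85 on pCrx.

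Library totals lay between 24726849 and 36500857 reads. The median member had between 903 and 2349 reads in a library, and the lowest single value was 143 reads in DNA and 76 in cDNA, so every member passed the filter of 10 DNA reads. Between replicates, the effects of the 89 members correlated with r of 0.96 to 0.97 (pRho) or 0.94 to 0.95 (pCrx). Barcode reads were amplified by PCR without molecular identifiers named in the labels, so read counts are not counts of molecules.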

How the data were processed

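Barcode read counts were deposited by the authors as whole, unnormalized numbers for 12 libraries (a DNA and a cDNA library of 3 replicates on 2 promoters). How reads were assigned to barcodes was not given in the labels used here. The coordinates are mm9, per the submitters' processing notes. The authors' deposited log2 expression values have the same distribution in all replicates of a promoter, and their deposited p-values come with those log2 values from an unstated test.

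Counts were summed over the 6 or 7 barcodes of an element. Elements needed 10 DNA reads. An effect was the allele by cDNA/DNA interaction in edgeR 4.0.16 (R 4.3.3, quasi-likelihood, TMM scaling), fitted to all 13717 modified elements with Benjamini-Hochberg adjustment and a threshold of 0.05. The promoter difference was the 3-way interaction. Members were tested against 3523 single changes, and against dimer-only elements in a fit added after seeing the data. Values per replicate used 0.5 reads as pseudocount. Barcodes as units used limma 3.58.1, with DESeq2 1.42.0 as a further alternative. Scripts were tested on simulated data.

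The members and lists were chosen with earlier results of these data known. Members named individually were those with the 5 lowest and 3 highest effects per promoter, the 3 largest promoter differences each way, the 3 furthest below and above the deepest single change, and the 2 with most changes. The 3 members on chromosome 18 were counted and not named. Same-numbered DNA and cDNA libraries come from 1 pool of retinas, per the labels, and deviations of the pairs from their group means correlated between -0.039 and 0.050. These correlations were small, and the replicate number was used as a block only in an alternative fit. Other alternatives were total-count scaling, other count minimums, each replicate left out, the highest-ratio barcode left out, and other choices of the deepest single change. Genes near the elements were not analysed here.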

Additional observations from a re-analysis of the deposited data

Results flagged for a closer look

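The effect differed between promoters, by edgeR's 3-way interaction test, in 55 members, and the contrast with the dimer-only element did so in 18. Among named members the pCrx minus pRho difference was most negative at chr13:54391651-54391750 (-2.59), chr12:117389144-117389243 (-2.59), chr17:27570392-27570491 (-2.47) and chr19:38805436-38805535 (-1.98). All 4 rose on pRho and fell on pCrx. The pCrx fall at chr19:38805436-38805535 did not pass by barcodes (limma adjusted p = 0.27).

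Falls that were larger on pCrx gave -1.70 at chr8:61013519-61013618, -1.32 at chr3:104769978-104770077, -0.90 at chr10:80869522-80869621, -0.77 at chr14:35424931-35425030 and -0.76 at chr11:120313700-120313799. A rise that was smaller on pCrx gave -0.71 at chr2:112311120-112311219.

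Falls that were larger on pRho gave 2.02 at chr10:19053567-19053666, 1.88 at chr6:39758713-39758812, 1.63 at chr4:135789349-135789448, 1.49 at chr13:44327013-44327112 and 1.31 at chr1:178911829-178911928. Rises that were larger on pCrx gave 1.76 at chr14:48846549-48846648, 1.59 at chr1:134310730-134310829 and 1.17 at chr11:72488951-72489050. With barcodes as units, 5 of the 21 named members' promoter differences no longer passed.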

How the results depend on the processing

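Of 292 values of the main comparisons under an alternative, 253 stayed within 1.5 times the reported count, or within 1 SD over replicates of the reported mean or median, 35 moved further and 4 reversed. With the replicate block, 64 members fell and 16 rose on pRho, and 60 and 11 on pCrx, and no count of calls moved by more than 1.5 times. The block was not run for the sum of parts.

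The mean effect on pRho was -0.75 by barcodes and -0.80 without the highest-ratio barcode. It was -1.04 where the unmodified element was above the typical one on pCrx, -0.85 without members that left a designed dimer fully or partly, and -0.87 without members that left TAAT, the last 2 subsets chosen after seeing the data. The median on pRho was -0.79, -1.18, -0.96 and -1.08 by barcodes and in those 3 subsets, and -1.002 to -0.89 with a replicate left out. On pCrx the mean was -1.28 and the median -1.17 where the unmodified element was above the typical one on pRho, and the median was -0.93 by barcodes. By barcodes 7 promoter differences were higher on pCrx. Members above the typical element numbered 7 on pRho and 2 on pCrx with total-count scaling, and 5 to 8 on pCrx with a replicate left out. The shares over all elements in these settings are not given here.

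The gap to the deepest single change on pRho was 0.47 by barcodes, 0.36 when chosen on 1 replicate and 0.18 when chosen on odd barcodes. It reversed to -0.20 with single-site inactivations only and to -0.052 when chosen on pCrx. On pCrx it was 0.59, 0.33 and 0.25 in the first 3 settings, 0.075 when chosen on pRho, 0.51 to 0.55 with a replicate left out, and reversed to -0.025 with single-site inactivations. With those inactivations only, which are fewer per member, the member was higher in 10.4% of contrasts on pRho and lower in 30.4% on pCrx. By barcodes it was higher in 221 single-change contrasts on pCrx.

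Against the dimer-only element, 4 members were higher on pRho by barcodes, and the mean was -0.27 without the highest-ratio barcode. On pCrx 2 were lower and 0 higher by barcodes (limma, with 2 higher at an unadjusted p below 0.05), 4 to 8 were lower with a replicate left out, and the mean reversed to 0.0038 without the highest-ratio barcode. The causes of these shifts were not tested, and 3 pools per promoter limit the precision.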

Other observations

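Arm orientation made little difference to the mean single-arm effect. The forward arm averaged -0.48 on pRho and -0.60 on pCrx, and the reverse arm -0.45 and -0.66, over 83 regions. The 7 members with TAAT cores in both arms averaged -1.12 on pRho and -1.33 on pCrx, and 6 and 4 of them fell and 0 rose. The 66 members with 1 TAAT core averaged -0.74 and -0.70, with 46 and 45 falls and 12 and 11 rises. The 16 members with no TAAT core in the changed dimer averaged -0.77 and -0.96, with 12 and 11 falls and 3 and 0 rises. The unmodified elements of these 3 classes averaged 0.28, -0.01 and 0.43 on pRho, and 1.00, 0.28 and 0.75 on pCrx. Over all modified elements, 43.7% fell and 16.3% rose on pRho, and 43.4% and 10.6% on pCrx. TAAGAG on either strand was in 29.2% of the members' unmodified elements, against 13.6% of all unmodified elements, and was left in 14.6% of members. Members that left another designed dimer fully or partly in place had 9 falls and 5 rises of 16 on pRho, and 13 falls and 3 rises on pCrx.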
